A study of Mus musculus with 9 samples.

Results

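The TRIM family genes were taken as the rows of the RNA-seq count table whose Ensembl ID maps to a mouse symbol made of Trim and a number, kept where RefSeq lists the gene as protein-coding. This gave 68 genes of 53715 in the table, after 1 pseudogene (Trim30e-ps1) of 69 matching symbols was left out. They were split by name into 16 members known as interferon-induced and 52 others. The libraries are Smart-seq2 bulk RNA-seq of thymocytes sorted by flow cytometry for TCRβ, CD69, CD24, CD4 and CD8, from C57BL/6 mice aged 6 to 8 weeks. Of the 5 libraries, 3 are WT and 2 are SRSF1KO, with the genotype Srsf1fl/flLckcre/+, in which Cre carried under Lck, a T lineage gene, deletes the floxed gene of the splicing factor SRSF1. The labels name no Cre allele in WT, so Cre and the loss of SRSF1 cannot be told apart. They do not say whether a library is 1 animal or a pool, so the p-values cover no more than the spread among the 5 libraries, which may be technical.

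TRIM proteins share a tripartite motif at the amino end, made of a RING finger, B-box zinc fingers and a coiled coil, and most act as ubiquitin ligases. The domain at the other end differs between members and sets what each binds. Many members that end in a PRY-SPRY domain are switched on by interferons and act in antiviral defence, while others shape chromatin, bind microtubules or sit in internal membranes. Interferon-induced genes are classically switched on by the factor ISGF3, which binds the interferon-stimulated response element in their promoters, and thymocytes gain a tonic interferon response as they mature.

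The libraries held 36026006 to 38985285 gene-assigned counts. All levels are in CPM, the count scaled to library size with TMM normalisation, and are listed in the order of the replicate numbers. A single count was worth 0.0260 to 0.0280 CPM. Srsf1 itself had 96.9, 123 and 103 CPM in WT and 42.6 and 30.9 CPM in SRSF1KO (log2 fold change -1.55 ± 0.19 SE, adjusted p = 0.0483, edgeR quasi-likelihood test). The list for the sort gate held 9 genes, those of the sorted proteins and also Trac and Cd3e, which were not sorted on. All 9 passed the filter, with a median log2 fold change of -0.022, 5 negative and 4 positive. Of these, edgeR called 0 and DESeq2 called 1 higher. Cd4 stood at 881, 767 and 932 CPM in WT and at 1229 and 1118 CPM in SRSF1KO (0.45 ± 0.11, edgeR adjusted p = 0.136). Xist and Ddx3y counts split both groups by sex, with a male pattern in SRSF1KO replicate 1 and WT replicate 2. Markers of other cell types were low next to the gate genes, whose summed level was 10114 to 11810 CPM. Summed levels were 73.4 to 96.1 CPM in WT and 84.97 to 95.5 CPM in SRSF1KO for 8 myeloid markers, 273 to 452 and 206 to 320 CPM for 8 dendritic cell markers, and 30.2 to 50.7 and 44.6 to 48.7 CPM for 6 B cell markers. They were 14.1 to 14.5 and 13.8 to 25.4 CPM for 5 thymic epithelial markers and 4.67 to 6.55 and 6.46 to 8.55 CPM for 6 muscle markers. Of the dendritic cell markers, Xcr1 stood at 1.32, 1.57 and 0.753 CPM in WT and at 0 and 0.0280 CPM in SRSF1KO, and passed the filter through WT alone. Siglech lay higher, from 3.86, 3.68 and 4.02 CPM in WT to 5.47 and 9.68 CPM in SRSF1KO. The other dendritic cell markers overlapped between groups, and of the 8 edgeR called 0 and DESeq2 1 lower. The 6 markers of NK and γδ T cells summed to 224 to 245 CPM in WT and 109 to 125 CPM in SRSF1KO. Most of that difference was Nkg7, a granule gene, at 187, 166 and 178 CPM in WT and 24.97 and 55.2 CPM in SRSF1KO. Klrd1 also lay lower, from 6.92, 7.25 and 6.86 CPM in WT to 2.80 and 1.06 CPM in SRSF1KO. The γδ receptor gene Trdc went the other way, from 27.5, 30.6 and 32.1 CPM to 56.9 and 43.9 CPM. Tcrg-C1 and Klrb1c overlapped between groups, and Ncr1 was near 0. The 7 erythroid markers summed to 2.93 to 12.7 CPM in WT and 22.9 to 99.1 CPM in SRSF1KO. The globin genes Hba-a1, Hba-a2, Hbb-bs and Hbb-bt lay above every WT library in both SRSF1KO libraries (log2 fold changes of 2.99 to 4.31, 0 called by edgeR), and Alas2 overlapped. Slc4a1, an anion exchanger gene of red cells, was at 0 in both SRSF1KO libraries and in WT replicates 1 and 2. None of the 7 lists had all defining markers at 0. The part of these cells in the TRIM values was not tested, and in bulk samples fewer cells of a type and less RNA per cell cannot be told apart.

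The promoters of the interferon-induced members are shown first, because letters of the interferon-stimulated response element were found in a larger share of them than of the rest of the family. The motif searched, 10 letters long, was GAAA, any 2 bases (NN) and GAAA again, on either strand, so that it reads TTTC, NN and TTTC where the match is on the other strand. It was searched in RefSeq promoters of GRCm38.p6 that run from 250 bases before to 50 bases after a start. Promoters were found for 53 of 68 members, 67 in all. Of 15 interferon-induced genes with a promoter, 8 held a match (53.3%). Of 38 other members, 1 did, Trim2 (2.63%), and among all 27025 genes with a promoter the share was 3.99%. The 8 windows are printed 5′ to 3′ on the strand of the gene, with the matching bases in capitals. Matches overlap in Trim21 and in Trim26, where the capitals hold 2 each.
Trim21: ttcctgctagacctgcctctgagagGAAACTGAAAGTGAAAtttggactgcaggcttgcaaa
Trim34a: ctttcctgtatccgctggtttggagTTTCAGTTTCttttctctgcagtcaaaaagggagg
Trim12a: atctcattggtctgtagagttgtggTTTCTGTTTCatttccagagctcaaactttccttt
Trim5: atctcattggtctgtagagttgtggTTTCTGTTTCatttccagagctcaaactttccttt
Trim12c: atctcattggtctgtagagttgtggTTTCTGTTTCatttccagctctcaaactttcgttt
Trim30a: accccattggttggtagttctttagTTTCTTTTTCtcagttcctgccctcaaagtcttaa
Trim30d: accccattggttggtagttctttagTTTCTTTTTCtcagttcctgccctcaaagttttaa
Trim26: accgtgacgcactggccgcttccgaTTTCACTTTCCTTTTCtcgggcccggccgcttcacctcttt

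These windows lie at chr7:102565433-102565494, minus strand (Trim21), chr7:104244442-104244501, plus strand (Trim34a), chr7:104315451-104315510, minus strand (Trim12a), chr7:104288121-104288180, minus strand (Trim5), chr7:104353344-104353403, minus strand (Trim12c), chr7:104465195-104465254, minus strand (Trim30a), chr7:104507856-104507915, minus strand (Trim30d) and chr17:36836961-36837026, plus strand (Trim26). The 60 bases of Trim12a and Trim5 differ at 0 positions, those of Trim12c differ from both at 3, and those of Trim30a and Trim30d differ from each other at 1. Trim30a has a second promoter with a match, 14 bases different from the first. The match began 160 bases before the start in Trim26 and between 49 bases before and 19 bases after it in the 7 others. The 7 interferon-induced genes whose windows held no match were Trim6, Trim25, Trim30b, Trim30c, Trim34b, Trim38 and Trim56, which says only that these letters are not in that window.

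**Figure D1:**
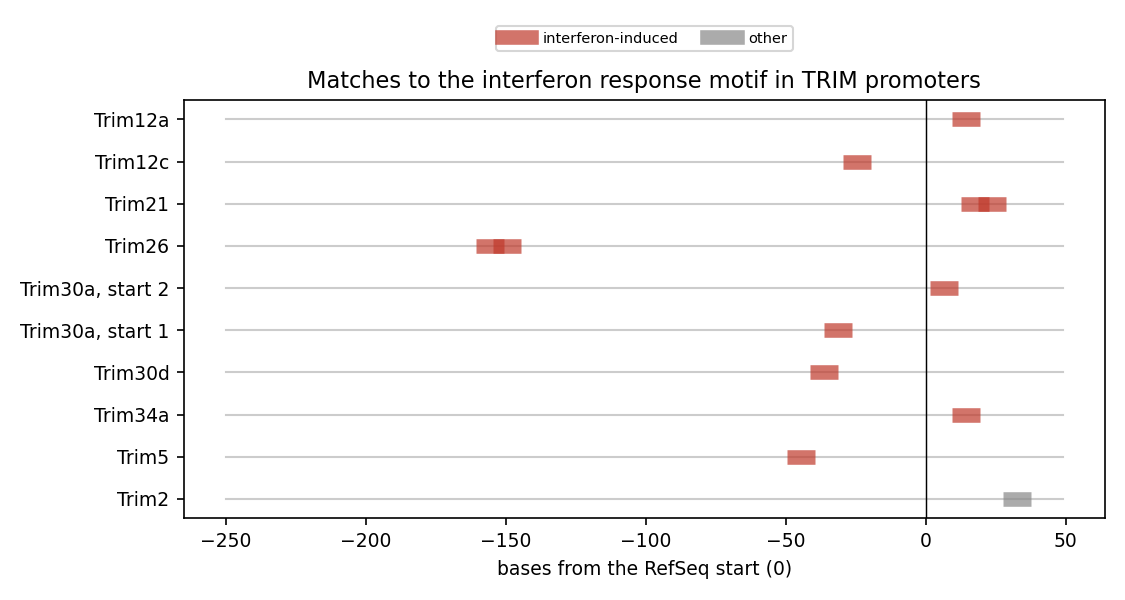
Position of each match to the interferon response motif on either strand, in bases from the RefSeq start (0, vertical line), within TRIM promoters of 300 bases (grey lines). Each bar is 1 match of 10 bases, red for interferon-induced members and grey for the other member with a match, and start 1 of Trim30a is the promoter printed in the text. Most matches sit within 50 bases of a start.

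Position also groups the interferon-induced members. A stretch of 289 kb on chromosome 7 (104218795 to 104507853, GRCm38) holds 10 members in the order Trim6, Trim34a, Trim5, Trim12a, Trim34b, Trim12c, Trim30b, Trim30c, Trim30a and Trim30d, all of them in the interferon-induced set. Trim21 lies with Trim68 elsewhere on the same chromosome (102557920 to 102687335). Trim26 lies with Trim15, Trim10, Trim40 and Trim31 on chromosome 17 (36837123 to 36910217). Trim14 (chromosome 4, 46505072 to 46536150), Trim25 (chromosome 11, 88999403 to 89020294), Trim38 (chromosome 13, 23778500 to 23791731) and Trim56 (chromosome 5, 137111286 to 137116462) stand alone. The Trim30 genes, the Trim34 genes, and Trim5 with Trim12a and Trim12c are known as paralogs, and their identity along the transcripts was not measured here. Where reads fit more than 1 paralog the counting could split them, so single values are given beside sums.

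Of the 68 members, 49 passed the filter on low counts: 14 of the 16 interferon-induced members and 35 of the 52 others. None was called between SRSF1KO and WT (edgeR, adjusted p under 0.05; smallest adjusted p = 0.0842, for Trim59). Of the 17351 genes tested 0.265% were called, 0.213% lower and 0.0519% higher. At an unadjusted p under 0.05 there were 5 lower and 2 higher members, 14.3% of 49, and the share over all genes was 14.4%, 8.45% lower and 5.9% higher. The SRSF1KO libraries lay outside the WT range for 15 members (30.6%), 10 below and 5 above, against 32.9% of all genes tested, 17.8% below and 15.2% above. DESeq2, the alternative test, called 0 members lower and 2 higher, Trim59 and Trim5, against 5.83% of genes called, 3.63% lower and 2.2% higher. By these counts the family as a whole stood near the background of the comparison.

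**Figure D2:**
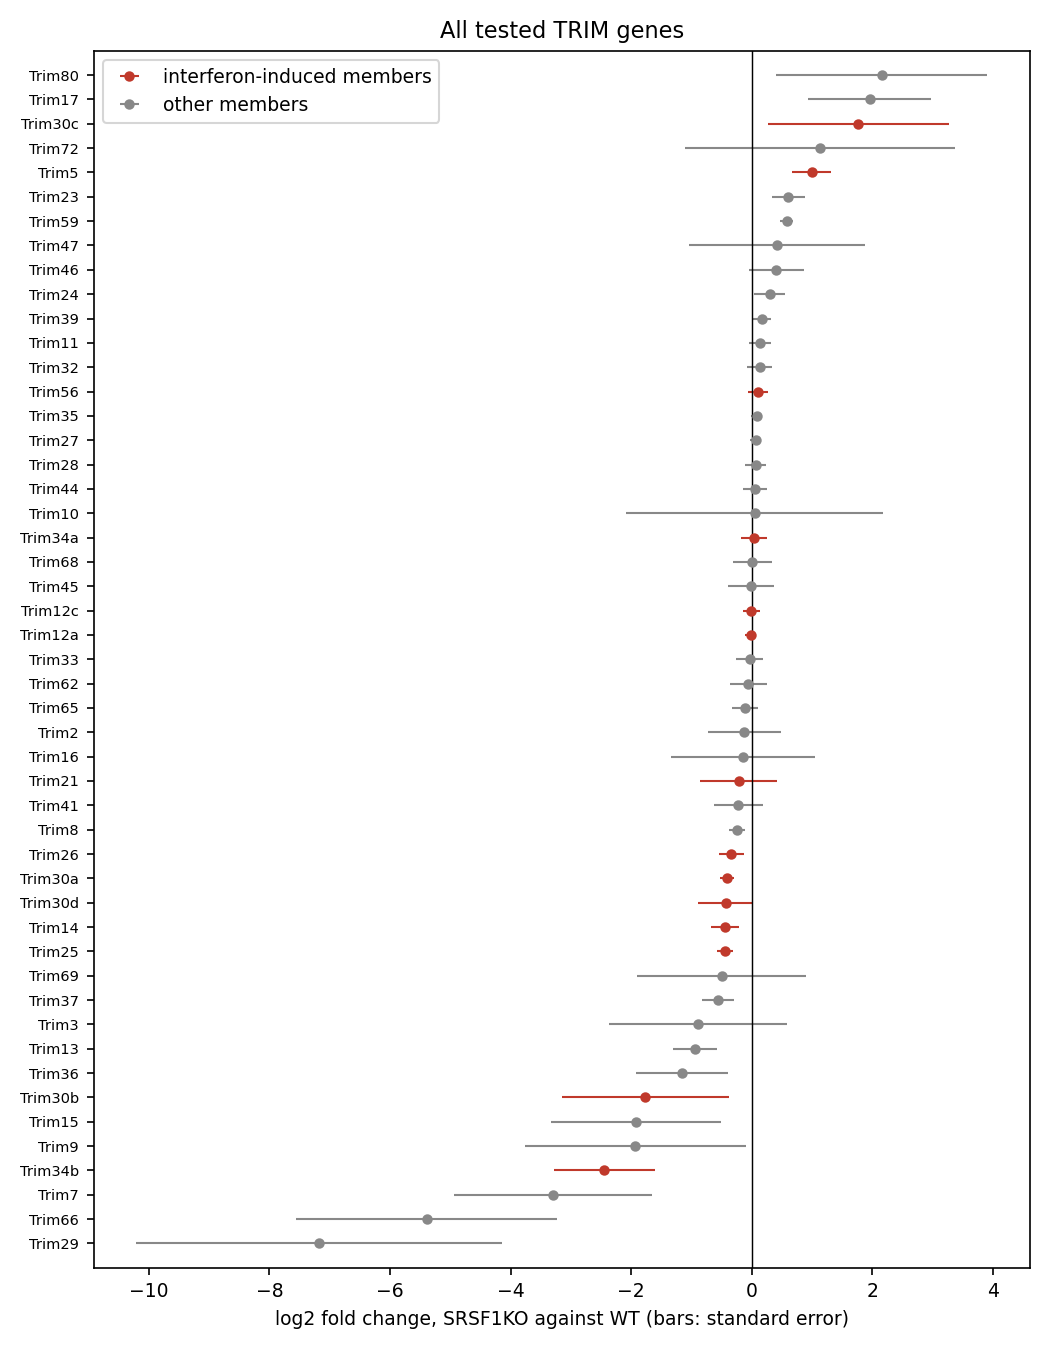
Log2 fold change of SRSF1KO against WT for the 49 TRIM genes that passed the filter, ordered by value, with bars of 1 standard error; red marks interferon-induced members and grey the others. The widest bars belong to genes under 5 CPM, and no gene passed the adjusted threshold.

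Within the family, 10 of 14 interferon-induced members tested lay below 0 in log2 fold change (71.4%). Their median was -0.28 and their quartiles were -0.44 and 0.020. Among those below 0, Trim30b and Trim34b passed the filter only with the help of their WT libraries, which favoured a negative value. The unadjusted p was under 0.05 for 4 of the 14 (3 lower, 1 higher) and for 3 of the 35 others (2 lower, 1 higher), with the background shares given above. Of the 35 others, 18 were negative (51.4%) and the median was -0.0083. Over all genes tested 50.6% were negative and the median was -0.0063. Set against the WT mean, the interferon-induced members had a median of -0.0085, 0.025 and -0.047 on the log2 scale in WT replicates 1, 2 and 3 and of -0.39 and -0.10 in SRSF1KO replicates 1 and 2. SRSF1KO replicate 1 was thus the lower of the pair, and SRSF1KO replicate 2 lay nearer to WT. The median difference was -0.081 among libraries of the female pattern and -0.25 among those of the male pattern. For the other members it was -0.099 and -0.075, and over all genes tested -0.0029 and -0.038. Among libraries of the female pattern the interferon-induced members thus stood no lower than the other members. Without WT replicate 1 the median fold change was -0.0088, against -0.049 for the other members and 0.0020 over all genes tested. Without SRSF1KO replicate 1 it was -0.046, against -0.15 and -0.049. In both fits the other members had the lower median. The interferon-induced members tested differed in these fits, 13 and 15 of them. Scarcely counted Trim21 changed sign in both, Trim30d in the first and Trim56 in the second. Trim26, a well-counted gene, stood at -0.34 in the first and at -0.046 in the second. Why the medians moved was not tested. The interferon-induced members that lay below every WT library in both SRSF1KO libraries could hardly change sign with 1 library left out. Their direction in these fits is therefore no added support, and the values only give the size. Without WT replicate 1, Trim25 stood at -0.45, Trim30a at -0.44, Trim14 at -0.48 and Trim34b at -2.53, and without SRSF1KO replicate 1 at -0.43, -0.36, -0.62 and -2.23. No p is given for the set, since its members were chosen with earlier results known.

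**Figure D3:**
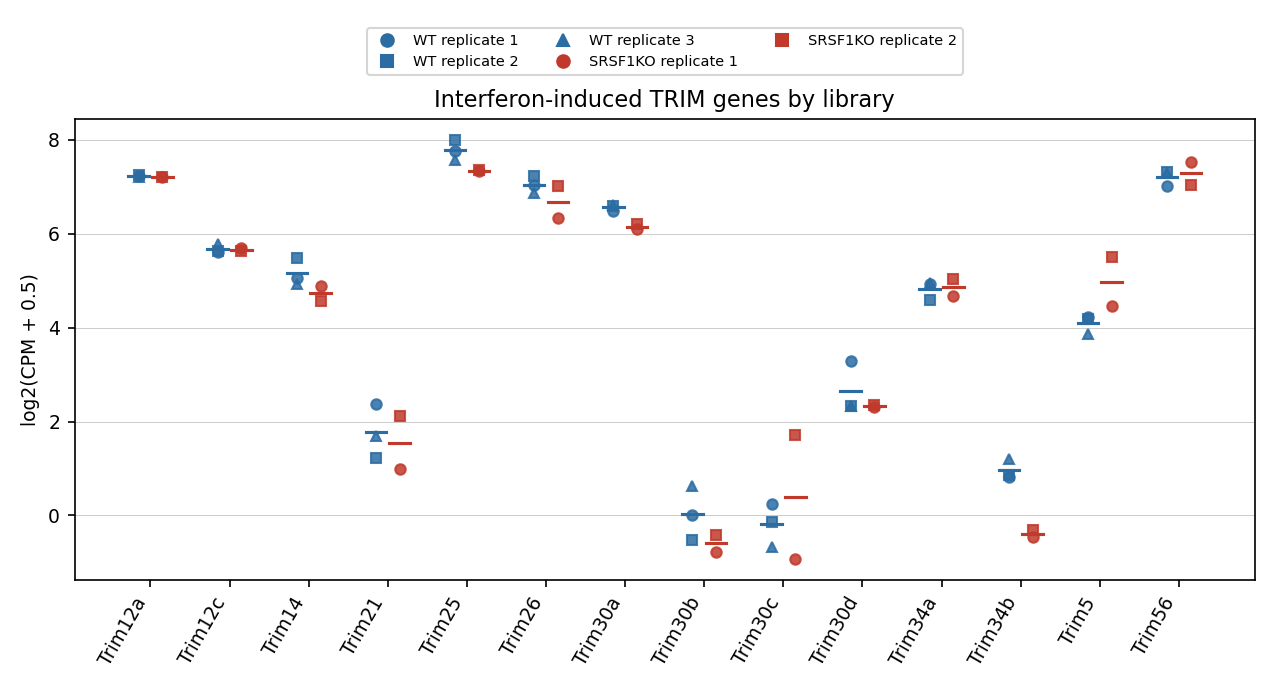
Level of the 14 interferon-induced TRIM genes that passed the filter in each library, on a log2 scale of CPM plus 0.5 (y axis). Blue marks WT and red SRSF1KO, the marker shape gives the replicate, and short lines are means of the plotted values. Trim25, Trim30a, Trim14 and Trim34b lie lower in both SRSF1KO libraries than in every WT library, Trim5 lies higher, and the other 9 overlap. The 5 without overlap are 35.7% of the 14, near the 32.9% of all genes tested.

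Among antiviral ligases and adaptors, Trim25 and Trim30a had the smallest p-values on the lower side. Trim25, a ligase that acts in signalling by the RNA sensor RIG-I, stood at 217, 255 and 189.7 CPM in WT and at 161 and 163 CPM in SRSF1KO (log2 fold change -0.44 ± 0.14 SE, edgeR adjusted p = 0.218). Trim30a, a mouse TRIM that restrains NF-κB signalling, stood at 88.6, 95.6 and 97.7 CPM in WT and at 68.0 and 73.1 CPM in SRSF1KO (-0.41 ± 0.12, edgeR adjusted p = 0.192). In both genes the SRSF1KO libraries lay below all WT libraries and close to each other. DESeq2 gave adjusted p = 0.0622 for Trim25 and 0.0663 for Trim30a. Trim14, an adaptor of antiviral signalling that has no RING finger, stood at 32.9, 44.0 and 29.8 CPM in WT and at 29.2 and 23.2 CPM in SRSF1KO (-0.44 ± 0.23, edgeR adjusted p = 0.442). Its upper SRSF1KO library reached nearly to the lowest WT library. Trim26, a ligase gene of the major histocompatibility region, stood at 132, 151 and 115 CPM in WT and at 80.7 and 128 CPM in SRSF1KO (-0.34 ± 0.21, edgeR adjusted p = 0.518). SRSF1KO replicate 1 alone was below WT, and the groups overlapped.

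Trim56 and Trim21 overlapped between groups, and Trim38 and Trim6 were barely counted. Trim56, a ligase linked to sensing of cytosolic DNA, stood at 128, 159 and 156 CPM in WT and at 185 and 131 CPM in SRSF1KO (0.098 ± 0.17, edgeR adjusted p = 0.871). Trim21, the cytosolic antibody receptor, stood at 4.67, 1.84 and 2.75 CPM in WT and at 1.47 and 3.83 CPM in SRSF1KO (-0.22 ± 0.64, edgeR adjusted p = 0.932). The groups of Trim21 overlapped, with SRSF1KO replicate 1 the lowest library and SRSF1KO replicate 2 inside the WT range, and the direction turned without WT replicate 1 (0.21) or SRSF1KO replicate 1 (0.31). Trim38, a feedback inhibitor of innate signalling, had 2 counts in WT replicate 2 and 0 in the 4 other libraries. Trim6 had 1 count in WT replicate 1 and 18 in SRSF1KO replicate 2. Neither Trim38 nor Trim6 was tested. A count of 0 allows up to 3 counts, or 0.0779 to 0.0839 CPM in a library, for counting error only.

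In the chromosome 7 stretch, the mouse relatives of the primate retroviral restriction factor TRIM5 did not move together. Trim12a stood at 150.3, 152 and 147 CPM in WT and at 148 and 148 CPM in SRSF1KO (-0.021 ± 0.094, edgeR adjusted p = 0.965). Trim12c stood at 48.2, 49.1 and 54.5 CPM in WT and at 51.0 and 49.2 CPM in SRSF1KO (-0.013 ± 0.14, edgeR adjusted p = 0.987). These values near 0 changed sign with the scaling: with the upper quartile they were 0.00097 for Trim12a and 0.0092 for Trim12c. Trim5 stood at 18.1, 17.8 and 14.0 CPM in WT and at 21.5 and 44.8 CPM in SRSF1KO (0.99 ± 0.32, edgeR adjusted p = 0.233; DESeq2 adjusted p = 0.0422). Both SRSF1KO libraries lay above WT, SRSF1KO replicate 2 far more so, and without it the log2 fold change of Trim5 was 0.39. Trim5 made up 8.37%, 8.11% and 6.52% of the summed CPM of Trim5, Trim12a and Trim12c in WT and 9.76% and 18.5% in SRSF1KO. The sum itself was 217 ± 1.90 CPM in WT (SD, n = 3) and 231 ± 15.3 CPM in SRSF1KO (SD, n = 2). Trim5 and Trim12a thus shared their 60 promoter bases while their measured levels differed between libraries in different ways.

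The Trim34 and Trim30 genes likewise held a well-counted gene and scarcely counted copies. Trim34a stood at 29.9, 23.7 and 30.6 CPM in WT and at 25.1 and 32.3 CPM in SRSF1KO (0.031 ± 0.21, edgeR adjusted p = 0.976). Trim34b had 48, 48 and 69 counts in WT and 8 and 11 counts in SRSF1KO, or 1.46 ± 0.29 CPM (SD, n = 3) and 0.265 ± 0.061 CPM (SD, n = 2). The groups were well apart on few counts (log2 fold change -2.45 ± 0.84, edgeR adjusted p = 0.261; DESeq2 adjusted p = 0.121). Trim34b would not have passed the filter on its SRSF1KO libraries alone. A ratio toward WT was thus favoured by the filter and only describes these counts. Trim34a and Trim34b together stood at 29.5 ± 3.99 and 28.9 ± 5.16 CPM (SD, n = 3 and n = 2). Trim30d stood at 9.30, 4.51 and 4.54 CPM in WT and at 4.44 and 4.62 CPM in SRSF1KO (-0.43 ± 0.45, edgeR adjusted p = 0.752), so WT replicate 1 set its difference, and without that library it was 0.011. Trim30b had 19, 7 and 40 counts in WT and 3 and 9 in SRSF1KO (-1.77 ± 1.38, edgeR adjusted p = 0.637). Trim30b passed the filter through WT replicates 1 and 3 alone, so its value too only describes these counts. Trim30c had 26, 15 and 5 counts in WT and 1 and 99 in SRSF1KO (1.76 ± 1.5, edgeR adjusted p = 0.674), and without SRSF1KO replicate 2 its value was -3.71. The 4 Trim30 genes summed to 99.1, 101 and 103 CPM in WT and to 72.5 and 80.8 CPM in SRSF1KO, and the sum followed Trim30a.

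The median and the share of negative values ran in opposite ways between members with and without a promoter match. The 8 tested members with a match had log2 fold changes from -0.43 to 0.99, with a median of -0.12 and 6 negative. The 5 tested members with a promoter but no match ran from -2.45 to 1.76, with a median of -0.44 and 3 negative, and 3 of the 5 (Trim30b, Trim30c and Trim34b) were scarcely counted. These are descriptions of a few genes with shared sequence, and no test was made.

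Among the 52 other members, the nuclear cofactors that carry a PHD finger and a bromodomain are the best known in T cells. Trim28 (KAP1), the corepressor recruited by KRAB zinc finger proteins, stood at 101, 129 and 90.5 CPM in WT and at 97.7 and 125 CPM in SRSF1KO (log2 fold change 0.062 ± 0.18, edgeR adjusted p = 0.933). Trim33, a cofactor and ligase of SMAD signalling, stood at 41.4, 52.2 and 35.0 CPM in WT and at 35.2 and 48.4 CPM in SRSF1KO (-0.036 ± 0.23, edgeR adjusted p = 0.974). Trim24, a related chromatin reader, stood at 21.2, 26.8 and 17.5 CPM in WT and at 31.2 and 22.4 CPM in SRSF1KO (0.30 ± 0.26, edgeR adjusted p = 0.681). All 3 overlapped between groups. Trim66, the fourth gene of this class, had 46, 1 and 36 counts in WT and 0 and 1 in SRSF1KO. That is 52.8 times as much in WT per unit depth, with a 95% counting interval of 9.22 to 2112 (exact binomial) that does not cover the spread between libraries, and WT replicate 2 stood no higher than SRSF1KO replicate 2 (edgeR adjusted p = 0.324). Trim66 passed the filter through WT replicates 1 and 3 alone, so a ratio toward WT was favoured by the filter and only describes these counts.

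Of 14 listed partners of Trim28 in gene silencing, among them histone methyltransferase, heterochromatin protein and deacetylase genes, all were tested and 0 were called by edgeR. Their median log2 fold change was 0.10, with 11 positive and 3 negative, and 0 were called by DESeq2. Atf7ip, which stabilises the methyltransferase SETDB1, stood at 216, 175 and 204 CPM in WT and at 239.6 and 231 CPM in SRSF1KO (0.25 ± 0.11, edgeR adjusted p = 0.384). Chd3, a chromatin remodeller, stood at 155, 173 and 123 CPM in WT and at 159 and 247 CPM in SRSF1KO (0.44 ± 0.21, edgeR adjusted p = 0.403).

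The members anchored in membranes or carrying an ARF, MATH or filamin domain held the gene with the smallest p of the family. Trim59 (chromosome 3, 69035292 to 69044742), a membrane-anchored TRIM studied in proliferating cells, stood at 112, 100.3 and 103 CPM in WT and at 159 and 155 CPM in SRSF1KO. Its mean was 105 ± 6.12 CPM in WT (SD, n = 3) and 157 ± 2.49 CPM in SRSF1KO (SD, n = 2), with the groups far apart against their spread. The log2 fold change was 0.58 ± 0.10 (edgeR adjusted p = 0.0842). It passed with DESeq2 (adjusted p = 0.000237). It did not pass with limma-voom (adjusted p = 0.0615), scaling by DESeq2 size factors (edgeR adjusted p = 0.0806) or the upper quartile (0.0794), a term for sex (0.147) or the replicate block (0.428). With 1 library left out, its edgeR adjusted p was 0.121 to 0.279. It passed with edgeR when no gene was filtered out (adjusted p = 0.0155, where 1.77% of genes were called) and among genes averaging 5 CPM or more (adjusted p = 0.0184, where 3.79% were called). The log2 difference was 0.53 among libraries of the female pattern and 0.66 among those of the male pattern. Trim13 (chromosome 14, 61598226 to 61610287), a ligase of the endoplasmic reticulum, stood at 19.9, 25.3 and 12.6 CPM in WT and at 12.4 and 7.67 CPM in SRSF1KO (-0.94 ± 0.37, edgeR adjusted p = 0.310). The upper SRSF1KO value of Trim13 all but met the lowest WT value. Its span overlaps Dleu2 and Kcnrg in RefSeq, and reads of overlapping genes cannot be told apart without the strand setting.

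Of the same class, Trim23, which carries a GTPase domain of the ARF type, stood at 23.6, 19.6 and 13.2 CPM in WT and at 28.4 and 28.8 CPM in SRSF1KO (0.60 ± 0.27, edgeR adjusted p = 0.367). Trim37, the MATH domain member, which overlaps Ppm1e, stood at 33.9, 36.5 and 31.8 CPM in WT and at 29.6 and 16.5 CPM in SRSF1KO (-0.56 ± 0.27, edgeR adjusted p = 0.392). In both genes the groups did not overlap, but in Trim37 the pair of SRSF1KO libraries was far apart. Trim23 and Trim37 were chosen after their values were seen.

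**Figure D4:**
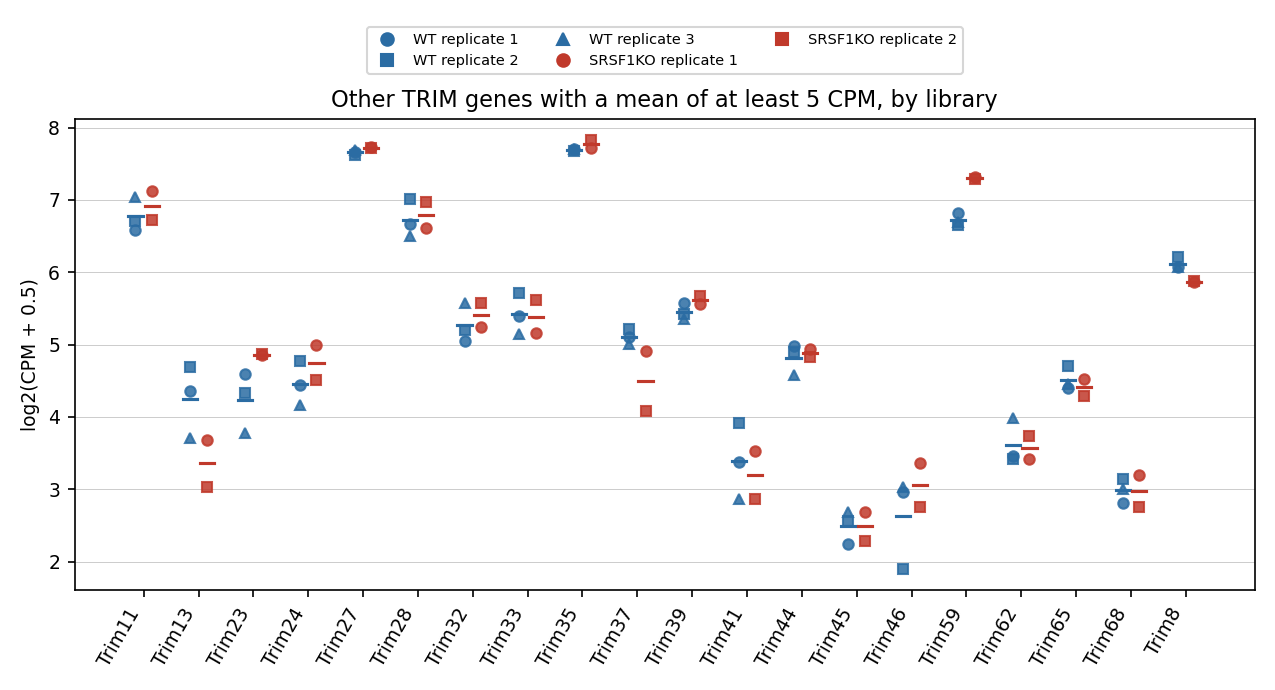
Level of the 20 other TRIM genes that averaged 5 CPM or more, in each library, on a log2 scale of CPM plus 0.5 (y axis). Blue marks WT and red SRSF1KO, the marker shape gives the replicate, and short lines are means of the plotted values. Trim59 shows the clearest separation, with SRSF1KO libraries at 159 and 155 CPM and WT libraries at 100.3 to 112 CPM.

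Members that end in a PRY-SPRY domain outside the interferon-induced set, and the rest without a class of their own, numbered 27. Of these 16 were tested, 6 negative and 10 positive, with a median log2 fold change of 0.055. Trim27, a ligase first found as a fusion partner of the RET kinase, stood at 202, 196 and 205 CPM in WT and at 211 and 209.5 CPM in SRSF1KO (0.064 ± 0.090, edgeR adjusted p = 0.834). Trim35 stood at 207, 203 and 207 CPM in WT and at 210.02 and 226 CPM in SRSF1KO (0.082 ± 0.092, edgeR adjusted p = 0.776). The SRSF1KO libraries of Trim27 and Trim35 lay just above WT, by little against the standard errors. Trim39, at 47.2, 42.6 and 40.5 CPM in WT and at 46.9 and 50.6 CPM in SRSF1KO, lies in the major histocompatibility region as Trim26 does and had the opposite sign (0.17 ± 0.15, edgeR adjusted p = 0.704). Trim7 had 18, 26 and 5 counts in WT and 1 and 2 in SRSF1KO (edgeR adjusted p = 0.419). That is 10.4 times as much in WT per unit depth, with a 95% counting interval of 3.35 to 52.1 that leaves out the spread between libraries. Trim7 too passed the filter through WT libraries alone, so its ratio only describes these counts.

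The remaining classes held few counted genes. Trim8, which has no recognised domain at the carboxyl end and acts in cytokine signalling, stood at 66.5, 73.7 and 66.8 CPM in WT and at 57.9 and 58.2 CPM in SRSF1KO, below all WT libraries (-0.25 ± 0.13, edgeR adjusted p = 0.434). Trim29, a member without a RING finger, had 0, 19 and 36 counts in WT and 0 in both SRSF1KO libraries. Against 3 counts over the SRSF1KO group, its pooled WT level was at least 11.7-fold higher, although WT replicate 1 was also at 0 (edgeR adjusted p = 0.357). Trim29 passed the filter through WT replicates 2 and 3 alone, so this bound only describes these counts. Of 8 members with a COS box or of the muscle type, 3 were tested, with log2 fold changes of -1.94 for Trim9, -1.15 for Trim36 and 0.40 for Trim46, and 0 were called. Of 4 NHL repeat members 3 were tested, with a median of -0.13 and 0 called.

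The 19 members that were not tested were almost silent in these thymocytes. Trim42, Trim54, Trim58 and Trim60 had 0 counts in every library, 6 members had 1 to 10 counts in all 5 libraries together, and no library held more than 50 counts of any of the 19. Trim58, a gene of late red cell precursors, was among those at 0, beside the higher summed erythroid markers of SRSF1KO given above. The muscle members Trim54, Trim55 and Trim63 each had at most 22 counts in all.

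The TRIM proteins with other names and the interferon pathway around the family were read for comparison. Of Pml, Mid1, Mid2 and Mefv, 2 were tested. Pml, the interferon-induced organiser of nuclear bodies, stood at 116, 131 and 104 CPM in WT and at 85.6 and 87.0 CPM in SRSF1KO (-0.44 ± 0.13, edgeR adjusted p = 0.200). This matched the size and the separation seen for Trim25 and Trim30a, again without passing. Mid1, a microtubule-bound ligase, stood at 9.45, 20.1 and 9.61 CPM in WT and at 8.07 and 14.9 CPM in SRSF1KO (-0.18 ± 0.44, edgeR adjusted p = 0.914). All 20 listed interferon regulators and sensors were tested. Their median log2 fold change was -0.47, with 17 negative and 3 positive, 0 called by edgeR and 7 lower and 0 higher by DESeq2, where 3.63% of genes were called lower. Zbp1, a sensor of Z-form nucleic acids, stood at 145, 120.3 and 133 CPM in WT and at 64.3 and 82.3 CPM in SRSF1KO (-0.86 ± 0.15, edgeR adjusted p = 0.0752). Irf7 stood at 116, 119 and 149 CPM in WT and at 59.7 and 82.2 CPM in SRSF1KO (-0.85 ± 0.18, edgeR adjusted p = 0.120).

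Of 8 listed partners of Trim21 and Trim25, 0 were called by edgeR, with 4 negative and 4 positive and a median of 0.027. Zc3hav1, the antiviral protein ZAP that works with Trim25, stood at 288, 330 and 291 CPM in WT and at 212 and 206 CPM in SRSF1KO (-0.53 ± 0.10, edgeR adjusted p = 0.0964). With DESeq2 it passed (adjusted p = 0.000589), as the 1 partner called. Ube2n, a ubiquitin-conjugating enzyme, stood at 155, 136 and 138 CPM in WT and at 153 and 170.3 CPM in SRSF1KO (0.18 ± 0.11, edgeR adjusted p = 0.535).

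**Figure D5:**
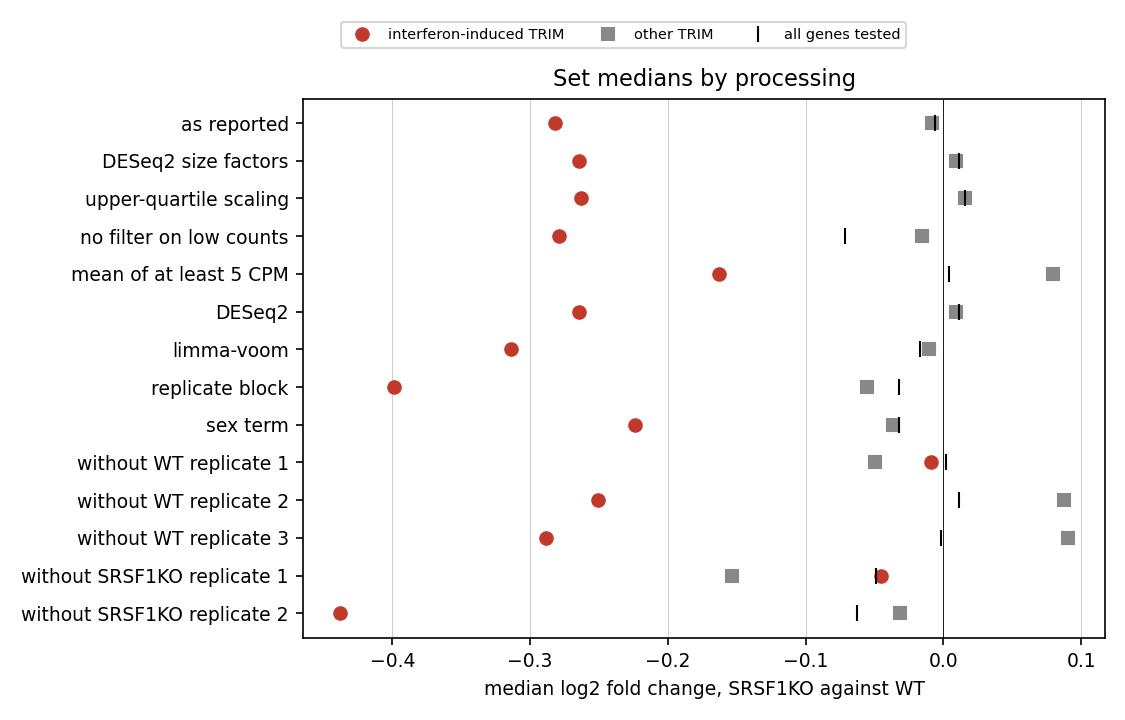
Median log2 fold change of SRSF1KO against WT (x axis) of the interferon-induced TRIM genes (red), the other TRIM genes (grey) and all genes tested (black bars), for the values as reported and each alternative (rows). The red median was -0.28 as reported and came nearest to 0 without WT replicate 1 (-0.0088) and without SRSF1KO replicate 1 (-0.046). In both of these rows the grey median was lower than the red (-0.049 and -0.15).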

How the data were processed

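The 5 RNA-seq libraries were analysed; the 4 CLIP-seq samples of the series were not analysed here. The table the authors deposited holds unnormalised whole-number counts for 53715 Ensembl IDs, of which 53620 matched a symbol. Per the submitters' processing notes, the build was mm10 and the tools included HTSeq 0.6.1, Bowtie2 2.1.0, cutadapt 1.17, HOMER 4.9.1, FastQC 0.11.5, Trim Galore and DESeq2 1.20.0, with no role for each. The RNA-seq aligner, annotation release and strand setting were not given in the sources used here.

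Counts were tested over all genes in R 4.3.3 by the quasi-likelihood test of edgeR 4.0.16 (robust glmQLFit, then glmQLFTest, with group as the only term) after TMM normalisation and filterByExpr, which left 17351 genes. The p-values were two-sided and adjusted by the Benjamini-Hochberg method, with calls under 0.05. A standard error is the size of the log2 fold change over the root of F. Differences within a sex pattern use log2(CPM + 0.5). Coordinates and promoters are RefSeq's on GRCm38.p6, which corresponds to mm10. The code was tested on simulated data.

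The members, the interferon-induced group and all lists were chosen with earlier results of these data known. Named genes were all interferon-induced members with counts, other members at an unadjusted p under 0.05, Trim24, Trim28, Trim33, Trim66, Trim27, Trim8, and up to 2 genes of each added list with the smallest p. A further part of the rule, by level per kilobase, was not applied, since transcript lengths were not used here, and levels are not ranked between genes. Trim7, Trim9, Trim11, Trim17, Trim23, Trim29, Trim35, Trim36, Trim37, Trim39, Trim46 and Trim80, and the members named at or near 0 counts, were chosen after their values were seen. The alternatives were upper-quartile scaling, scaling by DESeq2 size factors, no filter, a minimum average of 5 CPM, DESeq2 1.42.0, limma-voom (limma 3.58.1), the replicate number as a block, a term for sex, a narrower interferon-induced list, and each library left out in turn. With 1 SRSF1KO library left out, the other is assumed to vary like WT.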

Additional observations from a re-analysis of the deposited data

How the results depend on the processing

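The number of genes called over the whole table depended on the processing, while 0 interferon-induced members were called lower by any alternative run. As reported, 37 genes were lower and 9 higher. The counts were 7 and 3 with DESeq2 size factors, 346 and 198 with no filter, 233 and 143 among genes averaging 5 CPM or more, 629 and 382 with DESeq2, 71 and 23 with limma-voom and 5 and 0 with a term for sex (2269 genes at an unadjusted p under 0.05). With 1 library left out they ranged from 0 to 67 lower and 0 to 21 higher; edgeR called 0 genes without WT replicate 1, 2 or 3, where 1903, 2005 and 2079 had an unadjusted p under 0.05, and the highest counts came without SRSF1KO replicate 2. With no filter and with DESeq2, 1 interferon-induced member (Trim5) was higher and 1 other member (Trim59) was called. Among genes averaging 5 CPM or more, 1 other member was called, Trim59 again. The cause of these differences was not tested.

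The median of interferon-induced members lay between -0.44 and -0.0088 with 1 library left out, at -0.32 for the narrower list and at -0.16 among genes averaging 5 CPM or more, where 10 of them were tested. The median of other members was 0.079 among genes averaging 5 CPM or more, where 20 of them were tested, and lay between -0.15 and 0.091 with 1 library left out. With the replicate number as a block, a fit in which WT replicate 3 adds nothing to the contrast, 0 genes were lower and 0 higher over the whole table (1640 at an unadjusted p under 0.05). Same-numbered libraries did not deviate together (correlations of -0.12 for number 1 and -0.099 for number 2). The deviations of the 2 SRSF1KO libraries from their mean mirror each other, so this check cannot decide whether libraries of 1 number were prepared together. The labels do not say that the numbers pair samples.

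Values near 0 or on few counts changed sign. Trim12c was 0.0045 with DESeq2 size factors, 0.0092 with the upper quartile, 0.0065 with the 5 CPM minimum, 0.0044 with DESeq2 and 0.043 with the replicate block, and Trim12a was 0.00097 with the upper quartile. Trim30c was -0.038 with limma-voom and -0.41 with the block, and Trim28 was -0.044 with the block. With 1 library left out the ranges were -0.037 to 0.055 for Trim12c, -1.05 to 0.31 for Trim21, -3.71 to 2.75 for Trim30c, -0.61 to 0.011 for Trim30d, -0.14 to 0.20 for Trim34a, -0.17 to 0.34 for Trim56, -0.11 to 0.23 for Trim28, -0.26 to 0.18 for Trim33, -0.67 to 0.27 for Mid1, -0.44 to 2.81 for Trim17, -2.42 to 3.12 for Trim80 and -0.076 to 0.34 for Trim11. Of 524 values of 42 named genes under the alternatives, 483 kept their direction and their side of the threshold, 27 changed sign and 14 passed the threshold with the same sign. With the 5 CPM minimum, 11 named genes were not tested, among them Trim21, Trim30b, Trim30c, Trim34b and Trim66, and without WT replicate 1, 2 or 3 the filter removed 4, 3 and 4. Standard errors ran from 0.090 to 0.45 for the 30 members averaging 5 CPM or more and from 0.60 to 3.04 for the 19 tested members below it. Small differences of the latter were thus not detectable in these libraries.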

Other observations

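Several TRIM genes, most of them scarcely counted, stood out in SRSF1KO replicate 2 alone. Of 45 members with at least 10 counts in that library, 8 were at least 2 times as high there as in any other library (17.8%), namely Trim5, Trim6, Trim17, Trim30c, Trim61, Trim67, Trim75 and Trim80. Trim17 had 14, 16 and 22 counts in WT and 12 and 116 in SRSF1KO, Trim80 had 18, 0 and 18 and then 2 and 99, and Trim75 had 0 in all 3 WT libraries and in SRSF1KO replicate 1 but 50 in SRSF1KO replicate 2. Over all genes with at least 10 counts in SRSF1KO replicate 2, 9.99% met the same rule, the largest share of the 5 libraries, the others having 3.45% to 6.59%. SRSF1KO replicate 1 held no such TRIM gene among 38, where 5.52% of all genes met the rule. Trim17 overlaps the histone genes H2aw and H3f4 in RefSeq, and Trim60 and Trim61 overlap each other, so their reads cannot be told apart. These genes were chosen after their values were seen.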
